A study of Mus musculus with 6 samples.

Results

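The comparison is between fractions positive for the macrophage antigen ADGRE1, sorted from mouse sublingual mucosa, the lining under the tongue: ADGRE1-positive cells that lack CD206 and CD11c (called Fr2) and ADGRE1-positive cells high in CD206 (Fr3). The labels call this antigen by its antibody's name. The 4 arrays, 2 for each fraction, were chosen by the sort gate in the sample labels, out of 6 in the series; the other 2 hold CD11c-positive, CD206-negative cells (Fr1). All cells came from BALB/c mice, an inbred strain, which had received 2 paintings of that mucosa with FITC, a fluorescent dye that sensitises skin and mucosa, so no array shows unpainted tissue. The protocol in the labels names the dorsal side of the tongue as the tissue digested, with collagenase I and DNase I for 30 min, before the cells were sorted. Replicates are stated to be independent experiments; the number of mice per sort, and their age and sex, are not given in the sources used here. Each array measured total RNA after whole-transcriptome amplification, with 60-base probes and 1 dye, Cy3.

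ADGRE1 is an adhesion receptor on the surface of most mouse tissue macrophages and also of eosinophils and many monocytes. CD206, encoded by Mrc1, is the mannose receptor, which takes up glycoproteins and marks resident macrophages near vessels and in connective tissue. Such cells are known for a shared set of uptake receptors, complement and iron-handling genes and a few chemokines, while monocytes newly arrived from blood carry Ly6c2 and Chil3.

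Levels below are log2 signals minus the array's 75th percentile, so 0 is the signal at that percentile, and each difference is Fr3 minus Fr2 in log2 units with its standard error (SE) from limma, n = 2 arrays each. Between 46.5% and 52.4% of spots were well above background on the 4 arrays, and 0 were saturated. Over 20358 genes Pearson's r between replicates was 0.899 for Fr2 and 0.802 for Fr3, across genes that are not independent of each other. Both Fr3 arrays shared a slide with Fr1, whereas the Fr2 arrays had a slide of their own, so slide and fraction cannot be told apart anywhere in this comparison, and no value within a slide can be had. The second Fr3 array stood apart from the first, with 1418 genes over 8-fold lower and 237 over 8-fold higher, against 320 and 119 between the Fr2 arrays. In bulk samples such as these, fewer cells of a type and less RNA per cell cannot be told apart.

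The RNA of the gate's genes followed the labels in part. Mrc1, the gene of CD206, stood at 0.98 and 0.65 in Fr2 and at 4.10 and 3.01 in Fr3. Both arrays of Fr2, sorted as CD206-negative, thus read it well above background, whereas neither array of Fr1, also CD206-negative, did (-3.75 and -3.18). Both Fr3 arrays were above both Fr2 arrays, by 2.74 ± 0.62 on average, which did not pass after adjustment over all genes (adjusted p = 0.230, limma). Adgre1 was at 6.27 and 6.29 in Fr2 and 5.78 and 5.66 in Fr3, and a second Adgre1 probe had the opposite sign. Itgax, for CD11c, was at 3.10 and 1.53 in Fr2 and 0.52 and 1.29 in Fr3, where the higher Fr3 array came within 0.23 of the lower Fr2 array. In Fr1, sorted as CD11c-positive, Itgax was at 3.05 and 2.66. The first array of the CD11c-negative Fr2 reached that level, and the second lay below both Fr1 arrays, though well above background. RNA of this gene thus did not fully separate Fr2 from Fr1, while the gate is on protein. These genes chose the cells, so their values check the labels and are no finding.

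Between the fractions 2 of 20358 genes passed an adjusted p under 0.05, which is 0.00982% of genes. Gm2042, a predicted gene, was higher in Fr3, at 3.43 and 3.60, than in Fr2, at -4.86 and -4.91 (difference 8.40 ± 0.52, adjusted p = 0.022, limma). Pramel25, of the PRAME-like family, was at -4.64 and -4.71 in Fr2 and at 2.04 and 1.94 in Fr3 (difference 6.67 ± 0.52, adjusted p = 0.049). A second kept probe of Pramel25 read a difference of 1.03 (adjusted p = 0.601 on T-poor probes), and the mean of both probes 3.85 (adjusted p = 0.089). With the 4 arrays of Fr2 and Fr3 fitted alone neither gene passed (adjusted p = 0.098 for Gm2042 and 0.117 for Pramel25), nor with the replicate block (0.180 and 0.183). Neither was well above background on any Fr2 array, so the folds are bounds, at least 70.2-fold for Gm2042 and at least 24.4-fold for Pramel25. The differences, SEs and adjusted p-values above rest on those dim Fr2 readings (SD 0.040 and 0.045). Closeness of readings below background is no measure of the spread between sorts, so these 3 values are not settled either. The Pramel family holds many near-identical copies, so which copy this probe read is uncertain. On the mm9 build of the files the Gm2042 probe lies at chr12:89199059-89199118 and the Pramel25 probe at chr4:143385418-143385477, both on the plus strand.

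With an unadjusted p under 0.05, which makes no call, 855 genes were higher in Fr3 (4.2% of those tested) and 1030 were higher in Fr2 (5.06%). Both arrays of Fr3 lay above both of Fr2 for 4617 genes (22.7%), and below both for 4052 (19.9%). An exact permutation test of 2 arrays against 2 cannot give a p under 0.333, so the single genes below rest on the limma fit. Counts of list members below are to be read against these shares, and the median difference of all genes tested was 0.07. Probes well above background on both arrays of either fraction were kept. Genes kept through a single fraction could thus hardly be higher in the other, and they are part of these counts. With probes of over 30% T left out, a choice made because the second Fr3 array was low on the most T-rich probes, 69 of 13435 genes passed (0.514%), 20 higher in Fr3 (0.149%) and 49 higher in Fr2 (0.365%). Gm2042 and Pramel25 are not among them, since the probes that passed held 33.3% and 36.7% T and were left out. Without Fr3 replicate 1 the count over all probes was 917, and without any of the other 3 arrays it was 0. Where a gene is said below to pass on T-poor probes, it is one of these 69. Unless another probe is named there, the probe, the arrays and the difference are the same as with all probes. Only the set of genes fitted and adjusted over changed, so such a p is no second measurement.

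**Figure D1:**
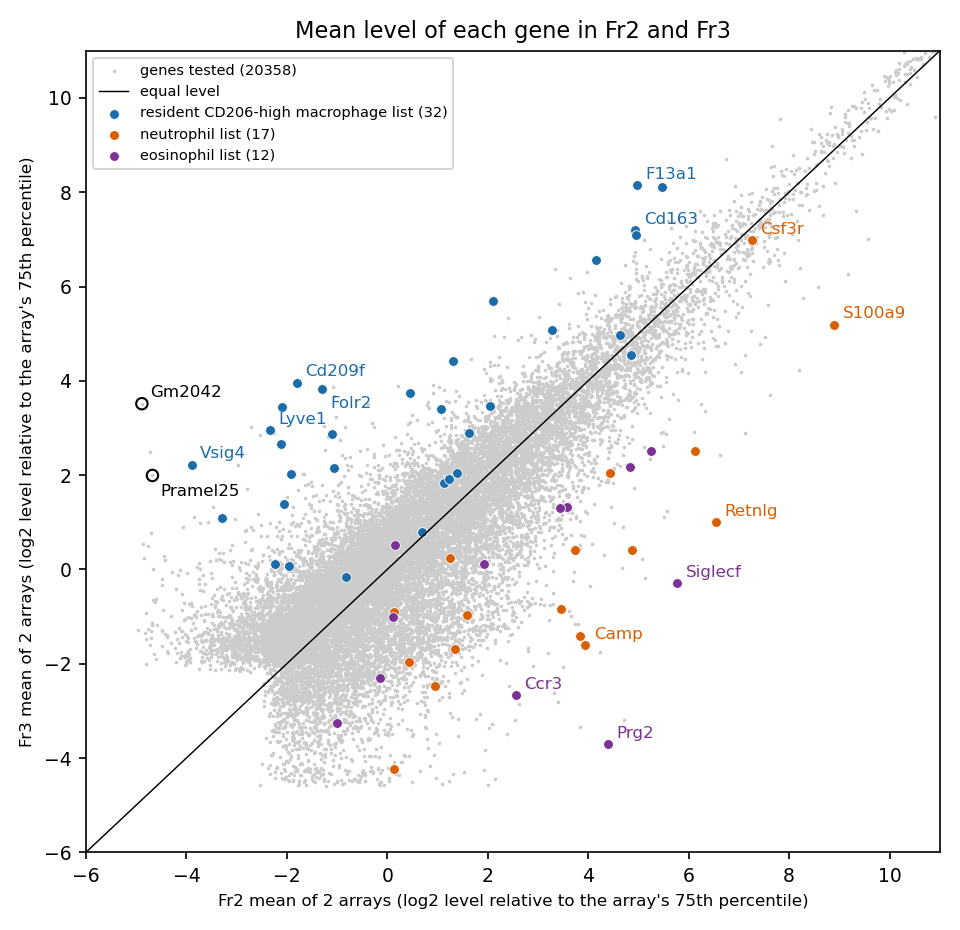
Each grey point is 1 of 20358 genes, with its mean log2 level over the 2 Fr2 arrays across and over the 2 Fr3 arrays up; the line marks equal level. Blue points are the 32 genes of the resident CD206-high macrophage list, orange the 17 neutrophil and purple the 12 eosinophil genes tested, and circles mark Gm2042 and Pramel25; 31 of the blue points lie above the line and the 17 orange points lie below it.

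Most genes known from resident CD206-high macrophages had higher values in Fr3. Members of this list recur in lists below, such as Folr2, Lyve1 and Stab1 among scavenger receptors and Vsig4 and Fcna among complement genes. Cd209f among C-type lectins and Fcgrt among Fc receptors recur too, so the counts of those lists are not separate results. All 32 listed genes were tested; 31 had a positive difference, 26 did not overlap between the fractions and 22 had an unadjusted p under 0.05 with Fr3 higher, against 0 with Fr2 higher. Over all genes 9.26% had such a p and 42.6% had no overlap, in either direction. The median difference was 2.53, against 0.07 for all genes, and none of the 32 passed with all probes (limma). Leaving out single arrays moved the median between 1.90, without Fr2 replicate 2, and 3.25, without Fr2 replicate 1, and the count of 22 between 15 and 24. On T-poor probes 24 members were tested, with a median of 2.66, and 6 of them passed, all higher in Fr3. With probes above background on all 4 arrays 24 members remained, with a median of 2.20. Of these, 15 had an unadjusted p under 0.05 with Fr3 higher and 0 with Fr2 higher.

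Among its uptake receptors, Cd209f, a C-type lectin of the DC-SIGN family, was at -1.59 and -2.0 in Fr2 and at 4.65 and 3.28 in Fr3. The Fr3 arrays were far above the Fr2 arrays, by 5.75 ± 0.72 (adjusted p = 0.082, limma; 0.019 on T-poor probes). Folr2, the folate receptor beta, was at -0.65 and -1.96 against 4.22 and 3.43, again without overlap (difference 5.13 ± 0.66, adjusted p = 0.086). Lyve1, the hyaluronan receptor of lymphatic vessels and of perivascular macrophages, was at -1.24 and -3.45 in Fr2 and at 3.69 and 2.23 in Fr3. In Fr2 it was well above background on 1 array only (difference 5.30 ± 0.88, adjusted p = 0.129). Stab1, stabilin-1, which clears modified proteins, was at -0.98 and -3.26 against 2.41 and 2.92 (4.79 ± 0.83, adjusted p = 0.139; 0.047 on T-poor probes). It too was well above background on 1 Fr2 array only. Cd163, the haemoglobin scavenger receptor, was well above background in both fractions, at 5.72 and 4.16 in Fr2 and 7.37 and 7.03 in Fr3, a difference of 2.26 ± 0.77 (adjusted p = 0.443). Of 17 scavenger and endocytic receptor genes listed 16 were tested, and 5 had an unadjusted p under 0.05 with Fr3 higher and 0 with Fr2 higher, with a median of 0.58; without Fr2 replicate 2 the counts were 3 and 0, and without Fr3 replicate 1 they were 5 and 2.

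Vsig4, the complement receptor of the immunoglobulin superfamily, was not well above background on either Fr2 array (-4.78 and -3.01) and was at 0.85 and 3.59 in Fr3. Its Fr3 arrays were far from each other (SD 1.94), and the bound was at least 28.7-fold higher in Fr3 (adjusted p = 0.131, limma; 0.042 on T-poor probes). Fcna, ficolin-A, a lectin that starts the complement cascade, was also below that mark in Fr2 (-2.46 and -4.12) and stood at 1.46 and 0.70 in Fr3, at least 12.4-fold higher (adjusted p = 0.123; 0.042 on T-poor probes). F13a1, the A chain of coagulation factor XIII, was well above background on every array: 5.30 and 4.63 in Fr2, 8.51 and 7.78 in Fr3 (difference 3.18 ± 0.58, adjusted p = 0.154). Cbr2, a carbonyl reductase, was at -0.63 and -3.54 against 3.52 and 3.38 (5.54 ± 0.97, adjusted p = 0.139), and its T-poor probe passed with Fr3 higher (adjusted p = 0.018), though that probe was well above background on neither Fr2 array, so no size is given for it. Selenop, the selenium carrier, was at 6.23 and 4.70 against 8.34 and 7.87, and Igf1 at 1.19 and 0.94 against 4.03 and 2.76, both without overlap and neither passing (adjusted p = 0.295 and 0.330). The members with the smallest differences were Colec12 (-0.30), Cd209b (0.09) and Cd209a (0.32), all lectins, whose arrays overlapped.

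**Figure D2:**
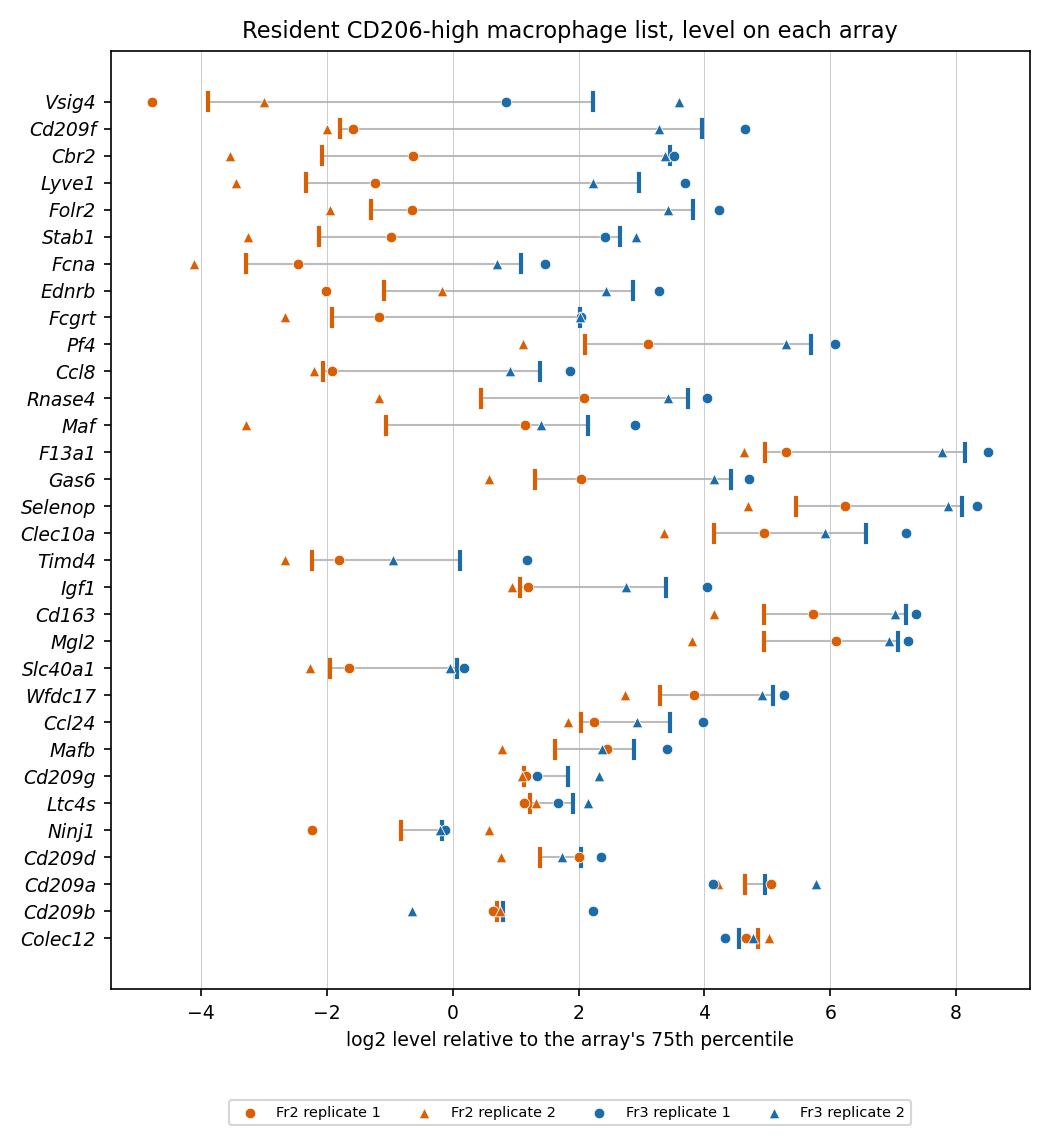
Log2 level relative to the array's 75th percentile of the 32 resident CD206-high macrophage genes on each of the 2 Fr2 (orange) and 2 Fr3 (blue) arrays, with circles for replicate 1, triangles for replicate 2 and bars for the means, ordered by the measured difference. Vsig4 and Fcna were not well above background in Fr2, so their place in the order is not fixed; Cd209f differs by 5.75 and Colec12 at the bottom by -0.30, and in 26 genes both Fr3 arrays lie above both Fr2 arrays.

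Core macrophage genes are those that most macrophages carry. Of 26 listed 25 were tested; 3 had an unadjusted p under 0.05 with Fr3 higher and 1 with Fr2 higher, with a median difference of 0.73 (0.39 without Fr2 replicate 2); the count with Fr3 higher was 8 without Fr2 replicate 1, 1 without Fr2 replicate 2 and 0 without Fr3 replicate 2. Csf1r, the receptor for the macrophage growth factor, was at 7.55 and 5.63 in Fr2 and 7.53 and 7.10 in Fr3, so its arrays overlapped. Cd68, a lysosomal glycoprotein, was at 4.36 and 3.22 against 5.39 and 6.33 (adjusted p = 0.398, limma), and the glutamine synthetase gene Glul at 2.15 and 2.30 against 3.84 and 5.16 (adjusted p = 0.332). Of the 25 tested, 15 had a positive and 10 a negative difference, and 9 and 8 of these were without overlap. Over all genes 22.7% and 19.9% were. Camk1, a calcium/calmodulin kinase, was the member with an unadjusted p under 0.05 and Fr2 higher. It was at 0.37 and 1.04 against -2.19 and -2.75 (-3.18 ± 0.59, adjusted p = 0.165, limma), and in Fr3 it was well above background on 1 array only.

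Most complement genes had higher values in Fr3: of 22 listed 20 were tested, 16 had a positive difference, 6 had an unadjusted p under 0.05 with Fr3 higher and 0 with Fr2 higher, and the median was 1.1. Without Fr2 replicate 2 the median was 0.63, with 2 such members higher in Fr3 and 1 higher in Fr2, and without the other arrays 0.98 to 1.47. Besides Vsig4 and Fcna these included Cfb, factor B of the alternative pathway, C4b and C1qb. Cfb was at 2.17 and 2.0 in Fr2 and at 4.07 and 3.95 in Fr3 (1.92 ± 0.58, adjusted p = 0.374, limma). C3, the central component, had a negative difference, at 3.82 and 5.08 against 2.95 and 2.24 (adjusted p = 0.579). None of the 20 passed with all probes (limma). Over all genes 4.2% had an unadjusted p under 0.05 with Fr3 higher and 5.06% with Fr2 higher.

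Of 17 haem and iron genes listed 14 were tested, and 10 had a positive difference, 5 of them with an unadjusted p under 0.05, against 1 with Fr2 higher; the median was 1.05 (0.89 to 1.48 with single arrays left out), and without Fr2 replicate 2 the counts were 2 and 0. Hmox1, haem oxygenase 1, which opens the haem ring and frees its iron, was at 3.49 and 3.19 in Fr2 and 6.76 and 6.00 in Fr3 (3.04 ± 0.85, adjusted p = 0.330, limma). Slc40a1, ferroportin, the exporter of that iron, was at -1.65 and -2.27 against 0.17 and -0.04 (2.02 ± 0.55, adjusted p = 0.308). Trf, transferrin, the iron carrier of plasma, was at 4.67 and 3.30 against 6.33 and 6.30, and Tfrc, its receptor, at 0.67 and 1.86 against 3.25 and 3.19. For each of these 4 genes both Fr3 arrays lay above both Fr2 arrays. Of the 4 members with a negative difference, Ireb2, which binds iron-responsive RNA elements, was the one with an unadjusted p under 0.05. It was at -0.36 and 0.80 against -3.17 and -1.47 (adjusted p = 0.479, limma).

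Chemokine ligands had higher values mostly in Fr3 and chemokine receptors mostly in Fr2, and none passed with all probes. Of 23 ligands listed 21 were tested, and 6 had an unadjusted p under 0.05 with Fr3 higher and 0 with Fr2 higher (median 0.54); of 18 receptors listed 16 were tested, and 0 and 7 did (median -1.40). Without Fr2 replicate 1 the ligand median was 1.00, and without Fr2 replicate 2 it was 0.45, with 4 ligands higher in Fr3 and 2 in Fr2; the receptor median stayed between -1.67 and -1.29. Ccl7 and Ccl2, ligands of CCR2 that draw monocytes, were at -0.18 and -1.88 against 3.74 and 2.72, and at 4.41 and 2.87 against 6.50 and 5.87 (adjusted p = 0.148 and 0.330, limma). Ccl8 was at -1.93 and -2.20 in Fr2 and 1.86 and 0.92 in Fr3 (3.45 ± 0.61, adjusted p = 0.148), and Pf4, or CXCL4, at 3.10 and 1.11 against 6.08 and 5.30. Cxcl13, which attracts B cells, was not well above background in Fr2 (-4.63 and -4.69) and stood at -0.14 and -1.15 in Fr3, at least 3.92-fold higher (adjusted p = 0.109; 0.039 on T-poor probes). Each of these 5 ligands was without overlap, and the inflammatory ligands Ccl3, Ccl4 and Ccl5 had differences of -1.33, -0.79 and -1.04 that did not pass.

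On the receptor side, Cxcr4, the receptor of CXCL12, was at 6.54 and 6.63 in Fr2 and 4.98 and 4.50 in Fr3 (-1.85 ± 0.53, adjusted p = 0.343, limma). Fpr2, a formyl peptide receptor, was at 4.55 and 4.59 against 2.22 and 2.26 (-2.33 ± 0.62, adjusted p = 0.308). Ccr6 was at 4.29 and 3.20 in Fr2 and -3.43 and 1.13 in Fr3, so its Fr3 replicates were far apart. Cxcr2 and Ccr3, the receptors that neutrophils and eosinophils use, were at 3.26 and 4.21 against 0.86 and -0.02, and at 1.82 and 3.31 against -3.69 and -1.62; both are also on the lists of those cells below. Ccr3 was well above background on 1 Fr3 array only. Ccr2, the receptor for Ccl2 and Ccl7, was at 2.85 and 1.72 against 0.67 and 1.88, and its arrays overlapped.

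The coagulation genes had members at both ends. F5, coagulation factor V, was at 4.37 and 5.07 in Fr2 and at -3.30 and -3.09 in Fr3, there not well above background, at least 126-fold lower there (adjusted p = 0.060, limma; 0.016 on T-poor probes). F2r, the thrombin receptor PAR1, was at 1.81 and 2.04 and below that mark in Fr3, at least 18.2-fold lower (adjusted p = 0.109). Serpinb2, an inhibitor of plasminogen activators, was at 3.10 and 2.72 against -1.94 and -2.16 (-4.96 ± 0.54, adjusted p = 0.072; 0.018 on T-poor probes). It was well above background on 1 Fr3 array only. F13a1, given above, and Tfpi, the tissue factor pathway inhibitor, were higher in Fr3, Tfpi at least 3.00-fold from a level not well above background in Fr2. Of 18 listed 16 were tested; 2 had an unadjusted p under 0.05 with Fr3 higher and 4 with Fr2 higher, and the median was 0.20 (0.05 without Fr3 replicate 2 and 0.39 without Fr2 replicate 2).

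Genes of apoptotic cell uptake, receptors and bridging ligands together, were likewise split, 2 with Fr3 higher and 2 with Fr2 higher at an unadjusted p under 0.05, of 15 tested among 20 listed. Havcr2, or TIM-3, was at 3.77 and 2.65 in Fr2 and at -2.33 and -1.20 in Fr3 (-4.97 ± 0.68, adjusted p = 0.100, limma; 0.030 on T-poor probes). It was well above background on 1 Fr3 array only. Gas6, the ligand that bridges dying cells to the TAM receptors, was at 2.04 and 0.58 against 4.71 and 4.15 (3.12 ± 0.68, adjusted p = 0.216). Timd4, a phosphatidylserine receptor of resident macrophages, was at -1.81 and -2.67 against 1.18 and -0.95, without overlap, but in Fr2 it was well above background on 1 array only. The list's median was 0.23, but -0.87 on T-poor probes and -0.13, -0.56 and -0.42 without Fr2 replicate 1, Fr2 replicate 2 and Fr3 replicate 2, so its sign is not settled.

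Of 22 C-type lectins listed 18 were tested, and 3 had an unadjusted p under 0.05 with Fr3 higher, namely Cd209f, Clec10a and Mgl2, and 2 with Fr2 higher; 1 had Fr3 higher without Fr2 replicate 2 or without Fr3 replicate 1. Clec10a and Mgl2, the galactose-type lectins MGL1 and MGL2, were at 4.95 and 3.35 against 7.21 and 5.92, and at 6.09 and 3.80 against 7.24 and 6.93. Clec12a, an inhibitory receptor of myeloid cells, was at 3.84 and 3.13 against 1.06 and 2.29. Clec7a, or Dectin-1, the receptor for fungal beta-glucan, was at 3.37 and 4.36 in Fr2 and 1.11 and 0.33 in Fr3 (-3.14 ± 0.65, adjusted p = 0.193, limma), but only on its brighter probe.

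The Clec7a and Adgre1 probes are shown because 2 probes of each gene disagreed. Given are the first 30 bases of each 60-base probe, 5′ to 3′, from the deposited files, with T in capitals.
Clec7a T-rich probe, chr6:129411739-129411798, minus strand: TTaaTaccacccTTaTTTccagTgTggacT
Clec7a T-poor probe, chr6:129420986-129422630, minus strand: TccaTaaaaggcccaggggaTcagagaaag
Adgre1 T-rich probe, chr17:57622843-57622902, plus strand: TTgTgTTTccTaTgcacTTTcTTgTggTgT
Adgre1 T-poor probe, chr17:57550221-57550280, plus strand: ccTggcTTTgcaTcTagcaaTggacagcTg
Positions are those of the files on mm9, where the T-poor Clec7a probe has a span longer than its 60 bases; whether a probe lies in coding sequence or a UTR is not given. The T-rich Clec7a probe, with 38.3% T over its 60 bases, read a difference of -3.14, and the T-poor one, with 15% T, read 1.04 and 0.14 in Fr2 and 1.18 and 0.17 in Fr3, a difference of 0.08. For Adgre1 the probes held 43.3% and 25% T and read -0.56 and 0.20.

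Over all genes the second Fr3 array departed from the first by the T content of the probe. The median of Fr3 replicate 2 minus replicate 1 went from 0.73 over the 1258 genes with probes of up to 15% T to -1.60 over the 2010 genes with over 40% T; it was 0.19 between 30% and 35% T and below 0 only over 35% T. Between the Fr2 replicates the same medians were 0.27 and 0.03, so no such trend of that size was seen there. The median difference between fractions went the same way, from 0.45 to -0.85. Over the 12022 genes with probes of up to 30% T, Pearson's r between replicates was 0.896 for Fr3 and 0.890 for Fr2. The part of this pattern in each gene's value was not tested beyond the counts on T-poor probes.

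**Figure D3:**
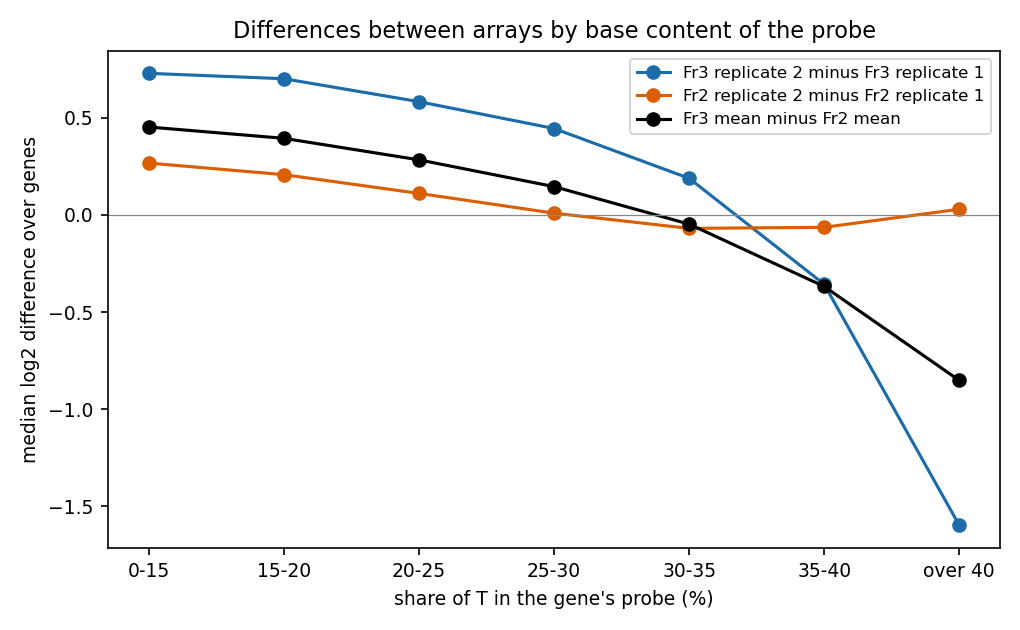
Median log2 difference over the genes whose probe falls in each class of T content (percent, across), for Fr3 replicate 2 minus replicate 1 (blue), Fr2 replicate 2 minus replicate 1 (orange) and the Fr3 mean minus the Fr2 mean (black). The blue line falls from 0.73 to -1.60 and the black line from 0.45 to -0.85, while the orange line stays between -0.07 and 0.27.

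Fc receptors bind antibodies, and of 9 genes listed 8 were tested, of which 3 had an unadjusted p under 0.05 with Fr3 higher and 1 with Fr2 higher, with a median of 0.89; without Fr2 replicate 2 the counts were 1 and 1. Fcgrt, the neonatal Fc receptor that recycles IgG, was at -1.18 and -2.66 in Fr2 and 2.03 and 2.02 in Fr3 (3.95 ± 0.66, adjusted p = 0.129, limma; 0.047 on T-poor probes). It was well above background on 1 Fr2 array only. Fcgr2b, the inhibitory receptor, was at 1.17 and 0.31 against 2.81 and 2.30, and Fcgr4, an activating one, at 5.65 and 4.81 against 3.37 and 3.25. So Fcgr2b was without overlap higher in Fr3 and Fcgr4 without overlap higher in Fr2, and neither passed (adjusted p = 0.431 and 0.355, limma). Of the 8 tested, 5 were without overlap higher in Fr3 and 1, Fcgr4, higher in Fr2, so these genes do not stand for receptors of their kind. Over all genes those shares were 22.7% and 19.9%.

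Of 21 inflammatory cytokines and mediators listed 18 were tested, and 5 had an unadjusted p under 0.05 with Fr2 higher and 0 with Fr3 higher, with a median of -0.49. That median was -0.28 without Fr3 replicate 1, where 3 had Fr3 higher and 3 Fr2 higher, and -0.80 without Fr2 replicate 2; without Fr2 replicate 1 only 2 had Fr2 higher, and 3 without Fr3 replicate 2. Il1b was at 8.48 and 7.96 in Fr2 and 6.10 and 6.68 in Fr3 (-1.83 ± 0.56, adjusted p = 0.376, limma). Ptgs2, the inducible cyclooxygenase, was at 4.30 and 4.49 against 2.71 and 1.37, and Csf1, the growth factor of macrophages, at 2.03 and 1.78 against 0.38 and 0.07. These were without overlap, whereas Tnf (3.06 and 1.07 against 1.15 and 2.05) and Il6 (3.85 and 2.08 against 3.45 and 3.73) overlapped. Of 19 Toll-like receptor genes and Cd14 listed together 15 were tested, and 2 had such a p with Fr2 higher and 0 with Fr3 higher, with a median of -0.68, which was 0.08 without Fr2 replicate 1 and -0.28 without Fr3 replicate 1. Tlr12, which senses a parasite profilin, stood at 3.18 and 0.83 in Fr2 and below the background mark in Fr3, at least 19.2-fold lower (adjusted p = 0.085; 0.019 on T-poor probes).

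MHC class II genes, which present peptides to helper T cells, had 0 members with an unadjusted p under 0.05 in either direction. Of 12 listed 11 were tested, 2 with higher values in Fr3 and 9 in Fr2, of which 0 and 2 were without overlap. The median was -0.11 (0.57 without Fr2 replicate 1 and -0.83 without Fr2 replicate 2). With normexp background correction 2 had such a p with Fr2 higher and 0 with Fr3 higher. Cd74, the invariant chain, was at 7.83 and 6.26 in Fr2 and at 6.46 and 7.53 in Fr3, and H2-Ab1 at 8.11 and 6.65 against 6.64 and 7.98. The arrays of the fractions overlapped for both genes, and the SE of these differences, 0.73 and 0.74, leaves room for a difference in either direction. The 15 interferon response genes tested, of 20 listed, likewise had 0 with an unadjusted p under 0.05, and of 21 cell cycle genes tested, of 24 listed, 1 did, Bub1, higher in Fr2 with its probe well above background on neither Fr3 array. Without Fr2 replicate 1, 2 interferon genes had Fr3 higher, and without Fr3 replicate 1, 3 cell cycle genes had Fr2 higher.

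The list of alternative activation genes had members in both directions, 5 with Fr3 higher and 4 with Fr2 higher at an unadjusted p under 0.05, of 17 tested among 21 listed, with a median of 0.90. Without Fr2 replicate 2 the median was 0.43, without Fr3 replicate 2 it was 0.41 and without Fr2 replicate 1 it was 1.49, and without Fr2 replicate 2 or Fr3 replicate 1 only 2 had Fr3 higher. Higher in Fr3 were Mrc1, which the gate used, Igf1, Clec10a, Mgl2 and Cd163. Chil3, a chitinase-like protein also called Ym1, was at 3.32 and 4.35 in Fr2 and -2.44 and -4.23 in Fr3 (-7.17 ± 0.82, adjusted p = 0.072, limma). Its probe, of 38.3% T, was well above background on 1 Fr3 array only, so the size of that difference is not settled. Tgm2, transglutaminase 2, was at 3.85 and 5.49 against 0.11 and -0.05 (-4.64 ± 0.69, adjusted p = 0.109; 0.036 on T-poor probes). Chil3 and Ear2, also higher in Fr2, are on the monocyte and eosinophil lists as well. Retnla was at 9.03 and 7.85 against 9.43 and 9.25, a difference of 0.90 that did not pass.

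Among growth factors and matrix genes 6 had an unadjusted p under 0.05 with Fr3 higher and 5 with Fr2 higher, of 24 tested among 27 listed, and without Fr2 replicate 2 the counts were 3 and 4. Pdgfc, a platelet-derived growth factor that acts on fibroblasts, was not well above background in Fr2 (-4.72 and -4.79) and stood at -0.22 and 1.22 in Fr3, at least 8.68-fold higher (adjusted p = 0.081, limma). Hbegf, a ligand of the EGF receptor, was at 2.14 and 2.11 against 4.50 and 4.16 (2.20 ± 0.52, adjusted p = 0.252). Vegfa, the vascular growth factor, was at 3.05 and 4.03 in Fr2 and 0.65 and 0.62 in Fr3 (-2.90 ± 0.58, adjusted p = 0.188), with 4 probes of the same sign. Of 25 transcription factor genes 1 had an unadjusted p under 0.05, Tcf4, higher in Fr3 on its brightest of 4 probes, 1 of which had the opposite sign; without Fr2 replicate 1 there were 3 such genes. Maf, linked to resident macrophages, was at 1.15 and -3.29 against 2.90 and 1.40, with Fr2 arrays far apart (SD 3.14, adjusted p = 0.573), and Spi1, for PU.1, at 1.14 and 0.19 against -0.94 and 0.83.

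At an unadjusted p under 0.05 the lipid genes had 2 with Fr3 higher and 4 with Fr2 higher of 22 tested among 23 listed, and the lysosome genes 1 and 2 of 27 tested among 28 listed, against 4.2% and 5.06% of all genes. With single arrays left out the lipid counts were 1 to 3 and 2 to 6, and the lysosome count with Fr3 higher was 0 to 6, the 6 without Fr2 replicate 1. Abcg1, a cholesterol exporter, was at 3.57 and 2.89 in Fr2 and 0.64 and 1.14 in Fr3 (-2.34 ± 0.57, adjusted p = 0.257, limma). Plin2, which coats lipid droplets, was at -0.10 and -0.10 against 1.76 and 2.56, but a T-poor probe of the gene read -1.73. Hexa, a subunit of a lysosomal enzyme, was at 2.80 and 1.31 against 3.89 and 4.73 and did not pass.

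**Figure D4:**
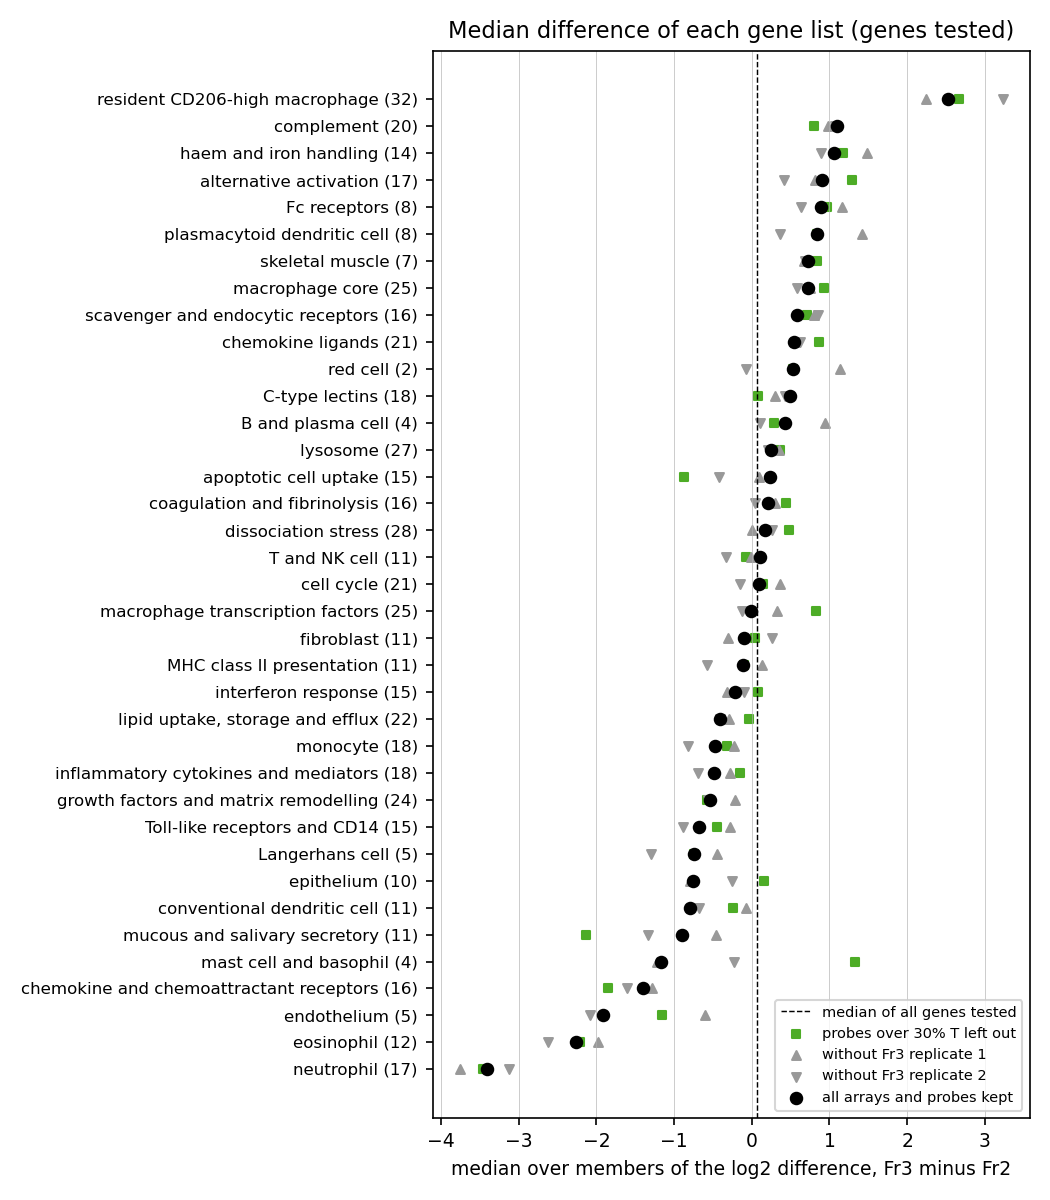
Median over the tested members of each of 37 gene lists of the log2 difference Fr3 minus Fr2 (number of members in brackets), with all arrays and probes (black), with probes of over 30% T left out (green squares) and without each Fr3 array (grey triangles); the dashed line is the median of all genes, 0.07. The resident CD206-high macrophage list has the highest median, 2.53, and the neutrophil list the lowest, -3.42.

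Many genes of granulocytes and some of monocytes had higher values in Fr2. Neutrophil genes had a median difference of -3.42: all 17 tested had a negative value, 15 did not overlap and 14 had an unadjusted p under 0.05, of 20 listed. With genes below background in a fraction set to their bound the median was -3.20. Over all genes 19.9% were without overlap and 5.06% had such a p with Fr2 higher. With probes above background on all 4 arrays 12 neutrophil genes remained, with a median of -3.46, and 9 had such a p. Retnlg, a resistin-like protein of neutrophils, was at 6.24 and 6.85 in Fr2 and 1.17 and 0.85 in Fr3 (-5.54 ± 0.57, adjusted p = 0.060, limma). Camp, the cathelicidin of neutrophil granules, was at 3.89 and 4.0 against -1.29 and -1.93 (-5.55 ± 0.56, adjusted p = 0.060), and Ngp, another granule protein, at 4.11 and 3.55 against -2.15 and -0.68. Camp was well above background on 1 Fr3 array only. S100a8 and S100a9, which form calprotectin, were at 4.60 and 5.14 against 0.97 and -0.16, and at 8.89 and 8.91 against 5.77 and 4.61. On T-poor probes 7 of 16 neutrophil genes passed, all higher in Fr2, among them Retnlg and Camp (both adjusted p = 0.016). In contrast Csf3r, the receptor for the neutrophil growth factor, was at 7.44 and 7.08 against 6.79 and 7.18, and Ly6g was well above background on 1 Fr2 array and on neither Fr3 array.

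Eosinophil genes had a median of -2.26, with 11 of 12 negative, 10 without overlap and 9 with an unadjusted p under 0.05; with bounds for dim genes the median was -2.20. Over all genes 19.9% were without overlap and 5.06% had such a p with Fr2 higher. With probes above background on all 4 arrays 8 eosinophil genes remained, with a median of -2.20, and 6 had such a p. The count of 9 was 4 without Fr2 replicate 2 and 4 without Fr3 replicate 1. Siglecf, the sialic acid receptor that marks eosinophils, was at 5.31 and 6.24 in Fr2 and -0.27 and -0.32 in Fr3 (-6.07 ± 0.58, adjusted p = 0.060, limma). Prg2, the major basic protein of their granules, was at 3.43 and 5.36 and was not well above background in Fr3, at least 101-fold lower (adjusted p = 0.060; 0.016 on T-poor probes). Epx, eosinophil peroxidase, was at 0.23 and -0.53 against -3.01 and -1.59 (adjusted p = 0.541), and Prg3 had arrays that overlapped. Epx was well above background on 1 Fr3 array only. On T-poor probes 3 of 10 eosinophil genes passed, Prg2, Ccr3 and Siglecf, the last read by another probe that was well above background on 1 Fr3 array.

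Of 18 monocyte genes, all tested, 5 had an unadjusted p under 0.05 with Fr2 higher and 0 with Fr3 higher, and the median was -0.48 (-0.22 without Fr3 replicate 1, -1.18 without Fr2 replicate 2 and -0.82 without Fr3 replicate 2). Ly6c2, the surface antigen of classical monocytes, was at 5.87 and 5.27 in Fr2 and 0.69 and 1.79 in Fr3 (-4.33 ± 0.78, adjusted p = 0.151, limma). Hp, haptoglobin, was at 4.51 and 5.66 against -0.39 and 0.83, and Plac8 at 2.79 and 4.2 against 0.06 and -4.18. The Plac8 probe held 43.3% T and was well above background on 1 Fr3 array only. On T-poor probes 10 monocyte genes had a value, 1 with an unadjusted p under 0.05 and Fr2 higher and 0 with Fr3 higher. Fn1 and Vcan, also listed, had differences of -0.05 and -0.35, and Lyz2, lysozyme, was at 6.39 and 5.87 against 6.72 and 6.84.

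**Figure D5:**
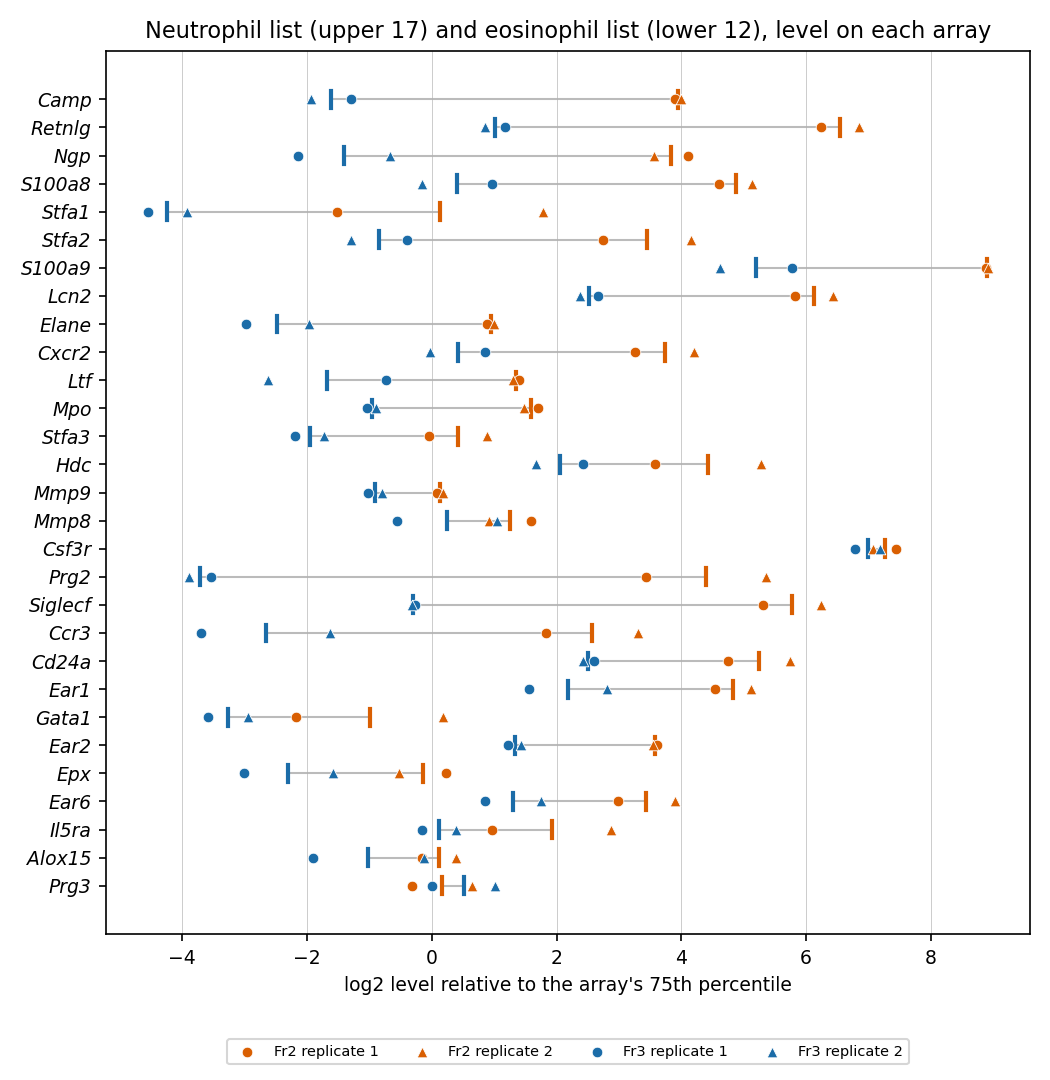
Log2 level relative to the array's 75th percentile of the 17 neutrophil and 12 eosinophil genes tested on each Fr2 (orange) and Fr3 (blue) array, with circles for replicate 1, triangles for replicate 2 and bars for the means. Camp differs by -5.55 and Csf3r by -0.28; Prg2, Gata1, Elane and Stfa1 were not well above background in Fr3, so their blue points have no settled distance.

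Summed on a linear scale, where 1 is the array's 75th percentile, neutrophil genes reached 878 and 972 in Fr2, 187.3 and 187.1 in Fr3, and 325 and 404 in Fr1. S100a9 and Csf3r gave most of these sums on each array, and in Fr3 Csf3r, whose arrays overlapped between the fractions, gave the most. Eosinophil genes summed to 129 and 254 in Fr2, 16.5 and 24.3 in Fr3 and 39.9 and 42.2 in Fr1. Of the 20 listed neutrophil genes 17 were well above background on both Fr2 arrays and 12 on both Fr3 arrays, and of the 12 eosinophil genes 12 and 8 were. Mucous and salivary secretory genes summed to 256 and 270 in Fr2 and 50.04 and 70.7 in Fr3. Muc5b and Dcpp1 gave most of the Fr2 sums, Dcpp1 at log2 levels of 5.10 and 7.56 in Fr2 and 4.15 and 4.23 in Fr3. Of 15 listed 11 were tested, 4 with higher values in Fr3 and 7 in Fr2, and at an unadjusted p under 0.05 there were 1 and 4, or 1 and 2 without Fr2 replicate 1. Lpo, lactoperoxidase, was higher in Fr3, at 0.90 on both arrays against -0.99 and -0.39. Those higher in Fr2 included Muc5b, a gel-forming mucin, at 7.0 and 5.48 against 3.65 and 3.38, and Tff2, a trefoil peptide of mucus, at 2.45 and 1.73 against a level not well above background in Fr3 (at least 20.3-fold lower, adjusted p = 0.072, limma; 0.018 on T-poor probes). These sums were higher in Fr2 on both arrays, as were Il1b, Chil3 and Havcr2; the part of other cells in the differences with Fr2 higher was not tested.

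Plasmacytoid dendritic cell genes summed to 126 and 141 in Fr2 and 166 and 219 in Fr3, sums to which Siglech alone gave most, at log2 levels of 6.91 and 7.07 against 7.30 and 7.68 (difference 0.50, adjusted p = 0.742, limma). Skeletal muscle genes summed to 4.29 and 4.32 against 5.70 and 9.64, with 1 of 7 tested at an unadjusted p under 0.05 in each direction. Conventional dendritic cell genes summed to 89.4 and 96.2 against 45.7 and 79.0. Of 11 of these tested 4 had higher values in Fr3, among them Dpp4 (0.95), and 7 in Fr2, among them Zbtb46, at 2.19 and 2.43 against 1.64 and -3.38, and Cd24a, also on the eosinophil list, at 4.75 and 5.75 against 2.59 and 2.42. The Zbtb46 probe held 46.7% T and was well above background on 1 Fr3 array only. Sums of the remaining cell types overlapped between the fractions. Monocyte genes summed to 4122 and 3085 against 3246 and 4879, epithelial genes to 245 and 231 against 197 and 300.3, and T and NK cell genes to 25.5 and 36.4 against 26.7 and 30.9. Of the defining markers, Cpa3 and Fcer1a of mast cells, Cd3g of T cells, Cd79a and Jchain of B and plasma cells, Krt5 of epithelium, Kdr and Tek of endothelium and Ckm of muscle were not well above background on any of the 4 arrays. Of 28 genes known to respond to tissue dissociation, 1 had an unadjusted p under 0.05 in each direction, Ier3 in Fr3 and Dusp2 in Fr2, with a median of 0.17 (-0.31 without Fr2 replicate 2), and without Fr2 replicate 1 the counts were 4 and 2.

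Outside the lists, the genes with the smallest p and a level above the 75th percentile in the higher fraction were named by rule. Higher in Fr3 were Hal, histidine ammonia-lyase, at -0.62 and -1.53 against 4.43 and 3.30 (4.94 ± 0.69, adjusted p = 0.107, limma; 0.030 on T-poor probes), and S1pr3, a sphingosine 1-phosphate receptor, at least 6.79-fold (adjusted p = 0.165). Npl, which splits sialic acid, was at -2.08 and -4.86 against 1.88 and 0.78, and Mxra8, a matrix remodelling protein, was at least 12.4-fold higher (adjusted p = 0.110; 0.040 on T-poor probes). Npl was well above background on 1 Fr2 array only. The rule also named Chp2, Cobll1, Pogk and the odorant receptor gene Olfr912, not well above background in Fr2 and at least 10.5-, 7.27-, 8.86- and 6.17-fold higher in Fr3. It named Nxpe5, Psd3 and Cul9 too, with differences of 5.19, 3.32 and 3.00 on the brightest probe but 0.79, 0.91 and 0.69 on the lowest. Gapvd1 read 3.75 on its brightest probe, while 1 of its 3 probes read -3.20. The brightest probes of Nxpe5 and Gapvd1 were well above background on 1 Fr2 array only.

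Higher in Fr2 by the same rule was Pglyrp1, a peptidoglycan recognition protein of neutrophil granules, at 3.71 and 4.77 against -1.51 and -1.99 (-5.99 ± 0.60, adjusted p = 0.060, limma; 0.016 on T-poor probes). It was well above background on 1 Fr3 array only. Sema4d, a semaphorin of leukocytes, was at 4.37 and 4.24 against 0.28 and 0.33 (-4.0 ± 0.52, adjusted p = 0.086), without overlap. P2ry14, the receptor for UDP-glucose, was at 0.05 and 0.42 and not well above background in Fr3, at least 5.64-fold lower. Tuba8, Tespa1, Klrb1f, Dach1 and Inpp5j were not well above background in Fr3, at least 38.0-, 6.71-, 27.4-, 9.37- and 25.1-fold lower there. Cmc2 had a difference of -4.96, and the Kif16b probe was well above background on neither Fr3 array. None of these genes passed with all probes (limma).

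Promoter sequences of the lists that differed most are described because nearly all their members had differences of 1 sign. RefSeq (GRCm38.p6) gave windows for 25 of 32 resident macrophage, 16 of 17 neutrophil and 9 of 12 eosinophil genes, and the 250 bases before each start site were searched on both strands. The C/EBP motif TTGCNNAA, of a factor family known for granule genes, was found before 7 of 16 neutrophil genes (43.8%), 4 of 25 resident macrophage genes (16%), 2 of 9 eosinophil genes (22.2%) and 10.8% of 27025 genes in the table. GAGGAA, a core of PU.1 sites, was found before 11 neutrophil genes (68.8%), 12 resident macrophage genes (48%), 3 eosinophil genes (33.3%) and 25.9% of all genes. TGCTGAC, a MAF half-site, was found before 1 neutrophil, 1 eosinophil and 2 resident macrophage genes, and 4.31% of all genes held it. For GATA factors the letters AGATAA were searched and found before 4 neutrophil, 2 eosinophil and 0 resident macrophage genes, and 11.4% of all genes held it. Genes with several windows count once if any window matches, none of the 4 motifs contains another, and a match shows only that the letters are there.

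The stretches below are shown as examples from these lists, 5′ to 3′ on the gene's strand, with the motif or its reverse complement in capitals.
Ngp C/EBP, chr9:110419659-110419688, plus strand: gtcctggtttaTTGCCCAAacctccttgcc
Lcn2 C/EBP, chr2:32387937-32387966, minus strand: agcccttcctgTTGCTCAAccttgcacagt
S100a8 PU.1, chr3:90669023-90669052, plus strand: gctggccaagctTTCCTCtataaaagcagc
Stab1 PU.1, chr14:31168654-31168683, minus strand: gctgatacgcagGAGGAAatcctggtgggt
Fcna MAF half-site, chr2:25628063-25628092, minus strand: cgaatccccagTGCTGACtgggaaagtgtg
These motifs lie 138 bases before the start site in Ngp, 216 in Lcn2, 36 in S100a8, 30 in Stab1 and 107 in Fcna. Lcn2, lipocalin 2, which binds bacterial iron carriers, was at 5.82 and 6.43 in Fr2 and 2.67 and 2.37 in Fr3 (-3.60 ± 0.56, adjusted p = 0.110, limma; 0.042 on T-poor probes).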

How the data were processed

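Spot intensity values on 6 Agilent arrays come from the authors' use of Agilent Feature Extraction (version 11.5.1.1); per the file headers it subtracted background and replaced dim spots with surrogates, with coordinates on mm9. The authors' deposited value table, in log2 units, matched the scanner values (r at least 0.9999) and served as an alternative. Here spots of a probe were averaged and log2 of the processed signal minus the array's 75th percentile was taken. Of 56601 probes (4 more were left out for outlier flags), 27116 well above background on both Fr2 or both Fr3 arrays were kept. The brightest gave each gene's value: 20358 genes, 4949 of them with over 1 probe. RefSeq names were matched by accession for 33893 probes, by symbol for 9463 and by synonym for 489; 12756 kept the file's name.

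Groups were compared with limma 3.58.1 (R 4.3.3; Python 3.11.15) by fitting the means of the 3 groups to the 6 arrays together, where Fr1 only adds to the estimate of spread. P-values are two-sided and were adjusted by Benjamini-Hochberg over all genes, with a call at adjusted p under 0.05. The fit was tested on simulated data. For a gene without a probe well above background in a fraction, "at least N-fold" divides the brighter mean by a floor, taken on each array as the lowest signal among probes above background, or the probe's own signal if that is higher. Genes were named by rule: the sort markers, up to 4 members of each list with the smallest p under 0.05 and no overlap, the 4 defining markers of each cell type, 12 other genes in each direction, and all called genes. Members named beyond it were chosen after their values were seen. The comparison, the 37 lists and the rules were chosen with earlier results of these data known, so they are no independent support. No gene list was tested as a set. The number of arrays limits the precision: with 2 a group, p-values rest on the spread between replicate arrays within the 3 groups, Fr1 included. That spread is partly shared across genes, and it holds no spread between slides. Some genes that these rules named are not reported here.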

Additional observations from a re-analysis of the deposited data

How the results depend on the processing

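Across 14 alternatives the count of genes passing, 2 as reported, was 2 with the authors' value table, 3 with probes above background on all 4 arrays, 8 with normexp background correction (offset 50), 69 with probes of over 30% T left out, 1 each with median scaling, quantile normalization, no filter on dim probes and the mean of all kept probes, and 0 with the 4 arrays of Fr2 and Fr3 alone. Leaving out an array gave 0 to 917; the 917 came without Fr3 replicate 1, where the lone second Fr3 array is assumed to vary like the other groups, and 0 without any of the other 3. The labels share replicate numbers, but deviations of same-numbered arrays correlated with r = 0.05 between Fr2 and Fr3, 0.13 between Fr1 and Fr2 and 0.42 between Fr1 and Fr3, so Fr2 and Fr3 are not taken as paired; with the replicate block 0 genes passed and the cause was not tested. At an unadjusted p under 0.05, 1885 genes were counted as reported, 2599 with the replicate block and 1698 with the 4 arrays alone. No slide block could be fitted between these fractions.

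Of 1840 values of 139 named genes under the alternatives, 1718 kept direction and side of the threshold, 91 newly passed, 16 no longer passed and 15, of 11 genes, changed sign. With T-rich probes left out Adgre1 read 0.20, Clec7a 0.081 and Plin2 -1.73. Leaving out single arrays moved Epcam between -1.20 and 0.36, Ms4a1 between -0.25 and 1.86, Flt3 between -0.65 and 0.15, Cd3e between -0.76 and 0.25 (0.05 without Fr2 replicate 2), Ncr1 between -0.35 and 0.56 (-0.013 without Fr2 replicate 2), Hba-a1 between -0.79 and 2.73, Cd207 between -1.78 and 0.28 and Bst2 between -0.69 and 1.58. Ncr1 read -0.0015 with median scaling and Hba-a1 -0.012 with the mean of all kept probes. In 8 named genes another kept probe had the opposite sign. Of 518 list medians 477 kept their sign, and the resident CD206-high macrophage, neutrophil and eosinophil medians did so under all 14. With normexp background correction these medians were nearer to no difference, at 1.77, -1.97 and -1.59. Depth on arrays is signal over background, which limits genes not well above it to bounds. Those bounds depend on how background is handled.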
